A study of Mus musculus with 4 samples.

Results

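The Spred, Sprouty and Dusp genes encode inhibitors of the Ras-ERK pathway, and 10 of them (Spred1, Spred2, Spred3, Spry1, Spry2, Spry4, Dusp1, Dusp4, Dusp5 and Dusp6) were followed through the m6A maps of Mettl3 cKO and WT macrophages. They were taken by gene symbol, as 10 of the 14804 genes with a peak in either genotype. They held 26 of the 38697 peaks in the Mettl3 cKO list, 21 of the 36507 peaks in the WT list and 8 of the 10355 listed differential peaks. An input level was held for 6 of them, out of 7307 genes with such a value.

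The cells were bone-marrow-derived macrophages of C57BL/6 mice, grown with M-CSF for 7 days and then cultured with MC38 mouse colon carcinoma cells for 24 hours. The cKO group carried LysM-cre together with floxed Mettl3 alleles (Mettl3fl/fl), and the WT group carried the same floxed alleles without Cre. Mettl3 catalyses the writing of N6-methyladenosine (m6A) in mRNA, and the lysozyme M promoter is active in myeloid cells. For each genotype 1 library was made from fragments bound by an m6A antibody (IP) and 1 from the unselected fragments (input). In such bulk poly(A) RNA, fewer cells of a type and less RNA per cell cannot be told apart. No group has a replicate, so every difference below is between single libraries, and the depth behind the values is unknown.

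Several facts of these libraries bear on all values. Mettl3 itself had 4 peaks in the cKO list and 2 in the WT list. With no input level of Mettl3 analysed here, its loss was not checked. Of 11 macrophage marker genes, 11 had a peak and 8 had an input value in FPKM (fragment counts corrected for transcript length and library total). These 8 summed to 3339 FPKM in the cKO and 4945 in the WT. Most of each sum came from its highest gene, at 1980 FPKM for the cKO sum and 3393 for the WT sum. Such sums do not give the share of macrophage RNA. Of 5 epithelial markers 4 had a peak. Krt19, the only one of them measured in the input, stood at 10.8 FPKM in the cKO and 7.05 in the WT. All 5 fibroblast markers had a peak, and 4 were measured in the input and summed to 132 FPKM in the cKO and 77.7 in the WT. Of the neutrophil markers S100a8 stood at 13.7 FPKM in the cKO and 12.3 in the WT, of the B cell markers Cd79a at 0.422 in the cKO and 0.970 in the WT, and neither of the T cell markers had a peak. The part of MC38 cells or other cells in the values below was not tested. How IP was scaled to input is not given in the sources used here, so a fall in m6A common to every site need not show in the peak values.

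ERK is the last kinase of the chain that runs from growth factor receptors through Ras, Raf and MEK, and in macrophages it carries signals from the M-CSF receptor and from Toll-like receptors. Spred and Sprouty proteins act high in the chain, on Ras and Raf, while Dusp phosphatases remove the phosphates that keep ERK and its relatives active. Many of these genes are themselves switched on by ERK, so that they close a negative feedback loop. m6A is placed mostly near stop codons and in 3' UTRs, often at GGAC followed by T, and marks many short-lived transcripts for decay.

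The motif GGACT lay inside peaks of both genotypes in 9 of the 10 members, and the peaks of Spry4 held none. The same share over all genes was not counted. Per peak, GGACT was in 65.2% of the members' cKO peaks and 63.2% of their WT peaks. Over all peaks in the same range of lengths the shares were 36.0% in the cKO and 36.4% in the WT. Member peaks were longer, which leaves more room for a match. The GGACT nearest to the stop codon in peaks of both genotypes is shown for 7 of the 9 members: for the 6 with a differential peak and for Spry2, the member of highest enrichment. Capitals mark GGACT, and the sequences are the transcribed strand, 5' to 3', of GENCODE M21 transcripts on mm10.
Spry1 (chr3:37643659-37643683, plus strand): caataggagtGGACTgtgaaactgc
Dusp5 (chr19:53541507-53541531, plus strand): tgggctctcgGGACTgtatggaagg
Spred2 (chr11:20021005-20021029, plus strand): ttgattcttcGGACTtcggcttcgg
Spred1 (chr2:117178263-117178287, plus strand): ctaggtgatgGGACTttttaaagat
Dusp4 (chr8:34818773-34818797, plus strand): ccagctgttaGGACTcgtctctgga
Spred3 (chr7:29161356-29161380, minus strand): cccaaactgaGGACTgagataccga
Spry2 (chr14:105893090-105893114, minus strand): attgactatgGGACTtgtgtgtgct
Those of Spred2 and Spry2 lie in coding sequence and the others in the 3' UTR. In Dusp4 the adenosine of the motif is base 2 after the stop codon, and the last base of the stop codon is the first G of the motif. The adenosine is base 120 after the stop codon in Spry1, base 158 in Spred3, base 197 in Dusp5 and base 326 in Spred1. A motif match does not show that the adenosine is methylated.

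The first question is where m6A peaks lie on the members in each genotype and how strong they are. All 10 members had at least 1 peak in both lists, as did 13022 of the 14804 genes with a peak in either list. In 9 of the 10 a peak covered the stop codon in each genotype, against 62.5% of coding genes in the cKO and 64.1% in the WT. Spry4 was the exception, and its peaks began in the 3' UTR. By the authors' region names, 17 of the 26 cKO peaks and 14 of the 21 WT peaks were 3' UTR peaks, 65.4% and 66.7%, against 55.7% of all cKO peaks and 56.2% of all WT peaks. The strength of a peak is the authors' log2 of IP over input. Its median was 1.59 over the members in the cKO and 1.73 in the WT, against 1.30 over all cKO peaks and 1.22 over all WT peaks.

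**Figure D1:**
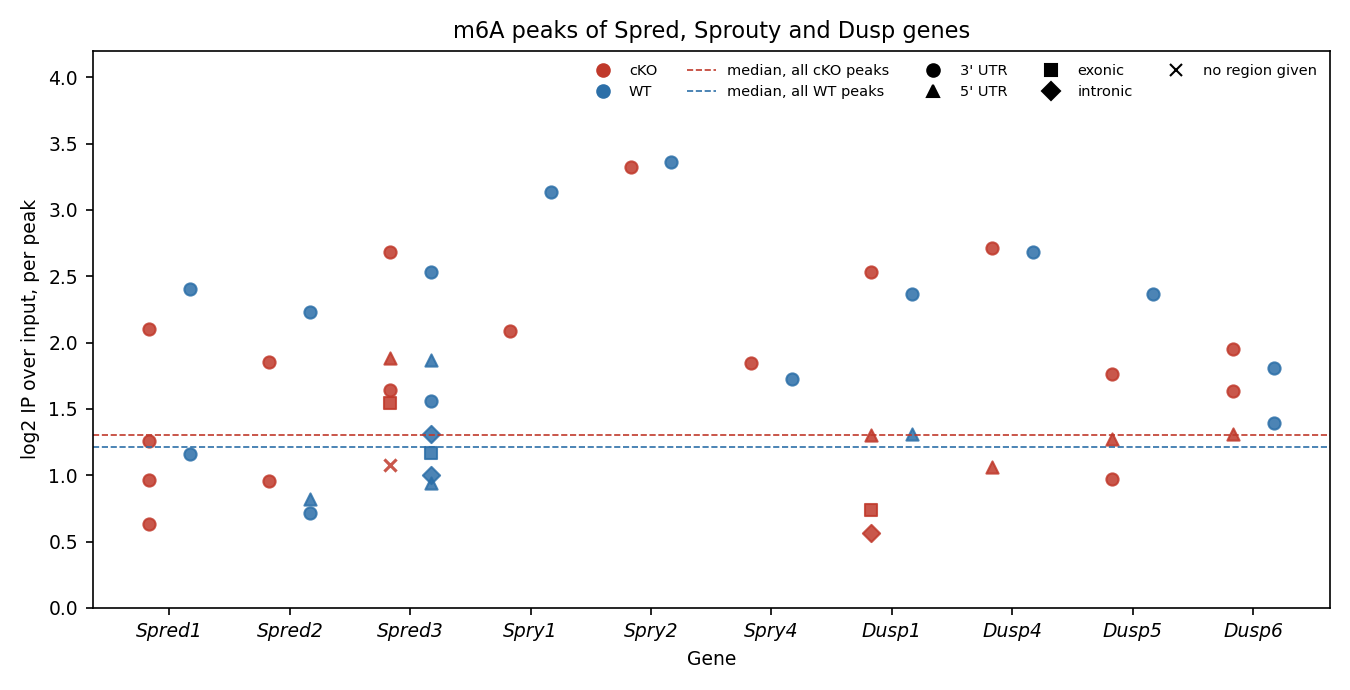
The log2 IP over input (y axis) of every peak is plotted by gene (x axis), with cKO peaks in red to the left of WT peaks in blue, symbols for the authors' regions and dashed lines at the median of all peaks of each list. Spry2 stands highest in both genotypes, at 3.33 in the cKO and 3.36 in the WT, while Spry1 stands at 2.09 in the cKO and 3.14 in the WT.

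Positions were placed on 1 transcript per gene, the one with the longest coding sequence among those named in the files. Since the authors' 3' UTR peaks reach far into coding sequence, the bases on each side of the stop codon are given below. Peaks covered between 7.89% and 92.8% of a member's transcript in the cKO, with a median of 65.2%, and between 5.78% and 100% in the WT, with a median of 72.7%. Over all coding genes with a peak in both lists the medians were 38.7% in the cKO and 38.4% in the WT. Peak positions include the introns they span.

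**Figure D2:**
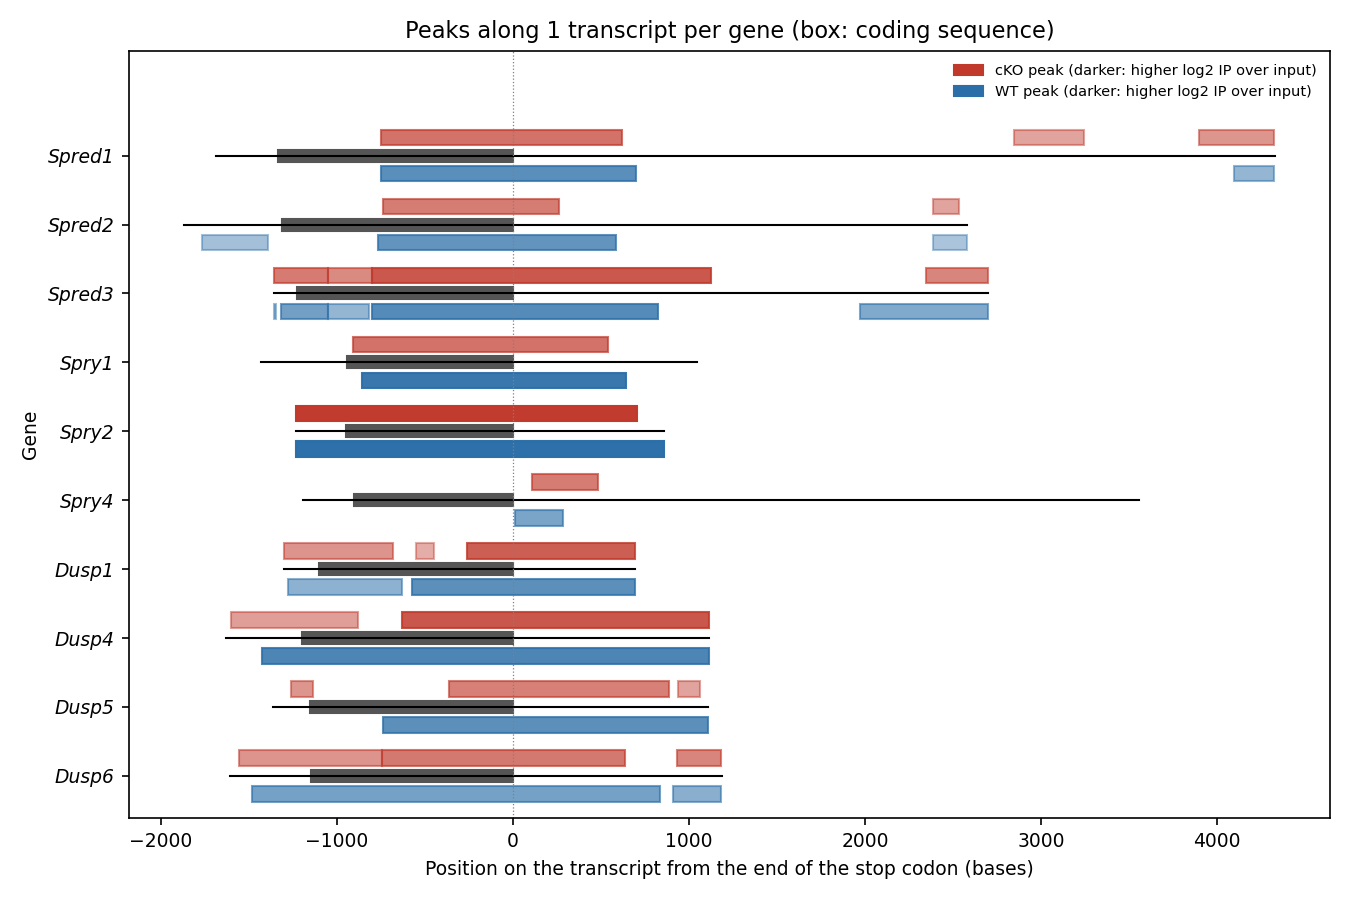
Peaks of the cKO (red, above each transcript) and the WT (blue, below it) are drawn along 1 transcript per gene against the distance in bases from the end of the stop codon (x axis), with the coding sequence as a grey box and stronger peaks darker. A peak crosses the stop codon in both genotypes in all members but Spry4. Dusp4 and Dusp6 each have a long WT peak where the cKO has separate peaks.

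The Spred genes were examined first. Spred proteins sit at the membrane, where they bring the Ras-inactivating protein neurofibromin to Ras. In Spred1 (chromosome 2, 117121374 to 117182279, plus strand) the main peak stood at 2.10 in the cKO and 2.40 in the WT, again as log2 IP over input. It covered 750 coding bases in each genotype, with 621 bases of 3' UTR in the cKO and 696 in the WT. At the far end of its long 3' UTR a weaker peak stood at 1.26 in the cKO and 1.16 in the WT. Another pair of weak Spred1 peaks, with no WT counterpart, was in the cKO list, at 0.96 in the distal 3' UTR and at 0.63 outside the exons of the transcript used here.

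Spred2 (chromosome 11, 19924375 to 20024026, plus strand) had its main peak around the stop codon, at 1.86 in the cKO and 2.23 in the WT. This peak covered 740 coding bases and 260 of 3' UTR in the cKO, and 765 coding bases and 585 of 3' UTR in the WT. Near the transcript's end a weak peak stood at 0.96 in the cKO and 0.72 in the WT. A 5' UTR peak, at 0.82, was listed in the WT only, where it lay among the weaker peaks of the list, above 22.7% of them. The 3 genes most like Spred2 in the level of their strongest 3' UTR peak were Nedd9, Capn10 and Mrtfa, out of 10908 genes compared on the log2 values of both genotypes. Their Euclidean distances from Spred2 over these 2 values were 0.00799, 0.0146 and 0.0205.

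Spred3 differs from its relatives in lacking a functional domain for binding the receptor Kit. It lies on chromosome 7 (29158829 to 29168647, minus strand) and had the most peaks of all members, with 5 in the cKO and 7 in the WT. Its main peak stood at 2.68 in the cKO and 2.53 in the WT and covered the same 804 coding bases in both, with 1122 bases of 3' UTR in the cKO and 822 in the WT. A peak over the start of the transcript stood at 1.88 in the cKO and 1.87 in the WT, and one at the end of the 3' UTR at 1.64 in the cKO and 1.56 in the WT. Between them, a coding peak had 1.55 in the cKO and 1.17 in the WT. Intronic peaks at 1.31 and 0.999 and a 5' UTR peak at 0.94 were also in the WT list. The fifth cKO peak, at 1.08, has no region name and overlaps Ggn, a gene on the opposite strand. Whether strand was used in peak calling is not given in the sources used here, so the reads of the genes may not have been told apart.

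Sprouty proteins are induced by growth factors and block the pathway upstream of or at Raf. Each of the 3 measured here had 1 peak per genotype. Spry2 (chromosome 14, 105891947 to 105896819, minus strand) had the highest enrichment of the members, at 3.33 in the cKO and 3.36 in the WT, above 95.7% of all cKO peaks and 94.5% of all WT peaks. The peak covered 1937 of the 2087 transcript bases in the cKO and all 2087 in the WT. In Spry1 (chromosome 3, 37639958 to 37644598, plus strand) the peak stood at 2.09 in the cKO and 3.14 in the WT, which placed it above 81.9% of the cKO peaks and 93.0% of the WT peaks. It covered 909 coding bases and 541 of 3' UTR in the cKO, and 859 coding bases and 641 of 3' UTR in the WT. In Spry4 (chromosome 18, 38586247 to 38601415, minus strand) a short 3' UTR peak of 375 bases stood at 1.84 in the cKO and one of 275 bases at 1.73 in the WT.

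The Dusp genes encode phosphatases that dephosphorylate both the threonine and the tyrosine of an active MAP kinase. Dusp1, a nuclear phosphatase of p38, JNK and ERK and an early response gene of activated macrophages, lies on chromosome 17 (26505590 to 26508519, minus strand). Its main peak ran to the end of the transcript, at 2.53 in the cKO and 2.37 in the WT, and covered all 690 bases of 3' UTR in both. It took in 260 coding bases in the cKO and 576 in the WT. Over the start of the transcript a peak stood at 1.30 in the cKO and 1.31 in the WT. In the cKO it spans 44374 bp of genome, a stretch with other annotated genes on both strands. Weak cKO peaks lay in coding sequence at 0.74 and in an intron at 0.56.

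Dusp4, an inducible nuclear phosphatase, lies on chromosome 8 (34807297 to 34819894, plus strand). In the WT list it had 1 peak, at 2.68, that covered 2540 bases of its transcript. In the cKO list the same stretch held a 5' UTR peak at 1.06 and a peak over the stop codon at 2.71. Dusp5, a nuclear phosphatase that acts on ERK, lies on chromosome 19 (53529109 to 53542431, plus strand). Its WT peak stood at 2.37 and covered 739 coding bases and the whole 3' UTR of 1109 bases. In the cKO the main Dusp5 peak stood at 1.77 over 364 coding bases and 886 of 3' UTR, beside a distal 3' UTR peak at 0.97 and a 5' UTR peak at 1.27 that overlaps an annotated antisense gene.

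Dusp6, the cytoplasmic phosphatase of ERK, lies on chromosome 10 (99263231 to 99267488, plus strand). Its main peak stood at 1.95 in the cKO and 1.81 in the WT, and its distal 3' UTR peak at 1.64 in the cKO and 1.39 in the WT. A 5' UTR peak at 1.31 was listed separately in the cKO, in a stretch that the main WT peak also covers.

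The next question is which of these peaks the genotypes share. Of the cKO peaks of the members, 21 of 26 (80.8%, exact Clopper-Pearson 95% interval 60.6 to 93.4) overlapped a WT peak, against 71.3% of all cKO peaks. Of the WT peaks, 19 of 21 (90.5%, 69.6 to 98.8) overlapped a cKO peak, against 73.2% of all WT peaks. These intervals cover counting error only and take peaks as independent, though several come from the same gene. Spred3 alone gave 5 of the cKO peaks and 7 of the WT peaks. Requiring that the overlap cover at least 50% of both peaks left 46.2% of the members' cKO peaks and 57.1% of their WT peaks, against 46.1% of all cKO peaks and 48.8% of all WT peaks.

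At the 11 member peaks with a single partner in the other list, the cKO value was lower in 5 and higher in 6, with a median difference of 0.078 in log2 units, cKO minus WT. Over all 19387 matched peaks 45.2% were lower in the cKO and the median difference was 0.042. The matched differences of the members ran from -1.05 in Spry1 to 0.24 in the distal 3' UTR peak of Dusp6. Taking the strongest 3' UTR peak of each gene, 5 of the 10 members were lower in the cKO, against 46.4% of 10909 genes. The lower ones were Spry1 (-1.05), Dusp5 (-0.60), Spred2 (-0.38), Spred1 (-0.30) and Spry2 (-0.03). Dusp4 (0.03), Spry4 (0.12), Dusp6 (0.14), Spred3 (0.15) and Dusp1 (0.16) were higher. Like the matched differences, these compare peaks as called, whose bounds differ between the lists. In Dusp4 the WT peak covered 2540 exonic bases and the cKO peak 1740, in Dusp6 2315 and 1379, and in Dusp1 1266 and 950. In Spred3 and Spry4 the cKO peak was longer. Over a common interval, the authors' deposited table has Dusp4 lower in the cKO (-0.28) and Spred3 higher (0.47). Dusp1, Dusp6 and Spry4 are not listed there.

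The comparison of m6A enrichment between cKO and WT rests on the authors' differential test, which had 1 IP and 1 input library per genotype, so its p-values carry no spread between cultures. The authors' deposited table lists a differential peak, at p below 0.05, in 6 of the 10 members, against 54.2% of the 13022 genes with a peak in both lists. At an adjusted p below 0.05 the authors' deposited table has a lower peak in 5 members (Spry1, Dusp5, Spred2, Spred1 and Dusp4), against 20.1% of those genes. It has a higher one at that threshold in 1 member, Spred1, against 16.7% of those genes in the authors' deposited table. Dusp1, Dusp6, Spry2 and Spry4 have no row in the table.

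Of the 8 member peaks in the authors' deposited table, 6 were lower and 2 higher in the cKO, against 51.1% lower and 48.9% higher over the whole table. All 6 lower peaks and 1 of the 2 higher ones had an adjusted p below 0.05 there, while 28.9% of all rows in the authors' deposited table were lower and 24.4% higher at that threshold. Of the 7 that the authors' deposited table names 3' UTR peaks, 5 were lower, against 48.5% of all its 3' UTR peaks. The median difference in the authors' deposited table was -0.31 over the 8 peaks and -0.18 over all peaks. The 10 genes were chosen with results of these data known, so these shares describe them only.

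In Spry1 the authors' deposited table puts log2 IP over input of the 3' UTR peak (37642643 to 37644142) at 1.90 in the cKO and 3.08 in the WT, with a difference of -1.18 and an adjusted p of 0.0423. This was the widest gap among the members, and in linear terms the authors' deposited table has 3.73-fold enrichment in the cKO and 8.46-fold in the WT. For the Dusp5 peak (53537570 to 53542431) the authors' deposited table gives 1.66 in the cKO and 2.39 in the WT (-0.73, adjusted p 0.000585). In Spred2 the peak at 20018082 to 20021982, which spans 765 coding bases and 535 bases of 3' UTR, differed by -0.65, at 2.95-fold enrichment in the cKO and 4.63-fold in the WT in the authors' deposited table. Its adjusted p in the authors' deposited table, 8.75e-08, was the lowest of the members. In the peak lists the Spred2 peaks as called differed by less, -0.38. There the cKO peak stood at 1.86 over 1000 exonic bases and the WT peak at 2.23 over 1350.

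In Spred1 the authors' deposited table holds peaks that moved in opposite directions. Around the stop codon (117172726 to 117178595) the authors' deposited table has 2.03 in the cKO and 2.38 in the WT, a change of -0.34 (adjusted p 0.00180). For a distal 3' UTR peak of 225 bases (117180796 to 117181020) the authors' deposited table has 1.14 in the cKO and 0.37 in the WT, a change of 0.77 (adjusted p 0.0438). These 225 bases held no GGAC. The cKO list has a longer peak from the same start, of 400 bases, and the WT list has no peak there. That longer cKO peak held 1 GGAC, which was a GGACT.

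In Dusp4 both differential peaks were lower in the authors' deposited table, the one over the stop codon at 2.68 in the cKO and 2.96 in the WT (-0.28, adjusted p 7.50e-07) and the 5' UTR one at 0.98 in the cKO and 1.23 in the WT (-0.25, adjusted p 0.0409). In the peak lists, by contrast, the cKO peak over the stop codon stood at 2.71 and the longer WT peak at 2.68. In Spred3 the main peak was higher, at 2.86 in the cKO and 2.39 in the WT (0.47), and its adjusted p of 0.148 in the authors' deposited table misses 0.05.

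**Figure D3:**
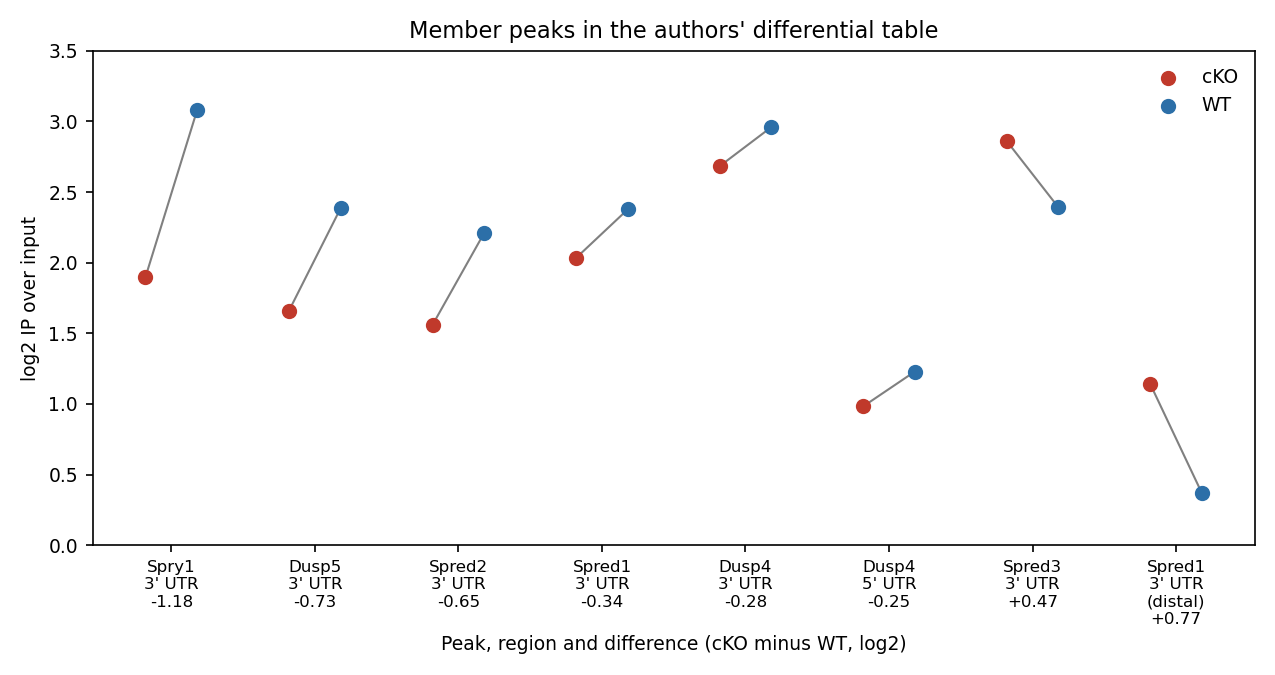
The log2 IP over input (y axis) of the 8 member peaks in the authors' deposited table is drawn with the cKO in red on the left and the WT in blue on the right of each pair, ordered by their difference, which stands under each name. Of the pairs, 6 slope up towards the WT, most steeply Spry1 (-1.18), and Spred3 (0.47) and the distal Spred1 peak (0.77) slope the other way.

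Over the whole of the authors' deposited table, the share of lower peaks varied with peak strength. Divided into 5 equal groups by the mean of the cKO and WT log2 values, the strongest group was lower in 85.5% of peaks in the authors' deposited table. This group holds the lower peaks of Spry1, Dusp4 (stop codon) and Spred1 (stop codon) and the higher peak of Spred3. The peaks of Dusp5 and Spred2 fall in the group below it, of which 58.0% were lower in the authors' deposited table. The weak 5' UTR peak of Dusp4 falls in a group with 37.9% lower and the distal Spred1 peak in one with 45.4% lower in the authors' deposited table. The part of peak strength in the members' differences was not tested.

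The input libraries give the level of the transcripts themselves. Dusp4 was the most abundant of the 6 measured members, at 39.9 FPKM in the cKO and 42.8 in the WT. Spred1 stood at 9.09 FPKM in the cKO and 12.4 in the WT, and Spred2 at 8.63 in the cKO and 9.85 in the WT. Dusp5 followed at 3.60 FPKM in the cKO and 3.21 in the WT, and Spred3 at 1.95 in the cKO and 1.65 in the WT. Spry1 was the lowest, at 0.604 FPKM in the cKO and 0.318 in the WT. Both libraries gave the same order of the 6 genes, and the input levels of Spry2, Spry4, Dusp1 and Dusp6 were not analysed here.

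None of the 5 members with a mean FPKM of at least 1 differed by 1.5-fold or more on the log2(FPKM + 1) scale, which shrinks the changes of low genes, against 3.13% of the 6079 genes at that level, 1.66% lower and 1.46% higher. Input levels exist only for genes with a listed differential peak, so those 6079 genes are not all expressed genes. Of the 5, 3 were lower in the cKO (Spred1, Spred2 and Dusp4) and 2 higher (Dusp5 and Spred3), and over the 6079 genes 54.2% were lower. The median difference of the 5, cKO minus WT, was -0.098, against -0.020 over the 6079 genes. The largest was -0.41 in Spred1. The authors' deposited table gives all 6 members a q of 1, with the lowest unadjusted p, 0.173, in Spry1.

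Among the members with lower m6A enrichment, the input was lower in the cKO for Spred1, Spred2 and Dusp4 and higher for Dusp5 and Spry1. The input is the denominator of the enrichment. Its ratio, cKO over WT, was 0.731 for Spred1, 0.876 for Spred2, 0.933 for Dusp4, 1.12 for Dusp5, 1.18 for Spred3 and 1.90 for Spry1. Spry1 had both the largest fall in enrichment and the largest ratio of input, from a level under 1 FPKM. The part of the input in these differences was not tested.

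**Figure D4:**
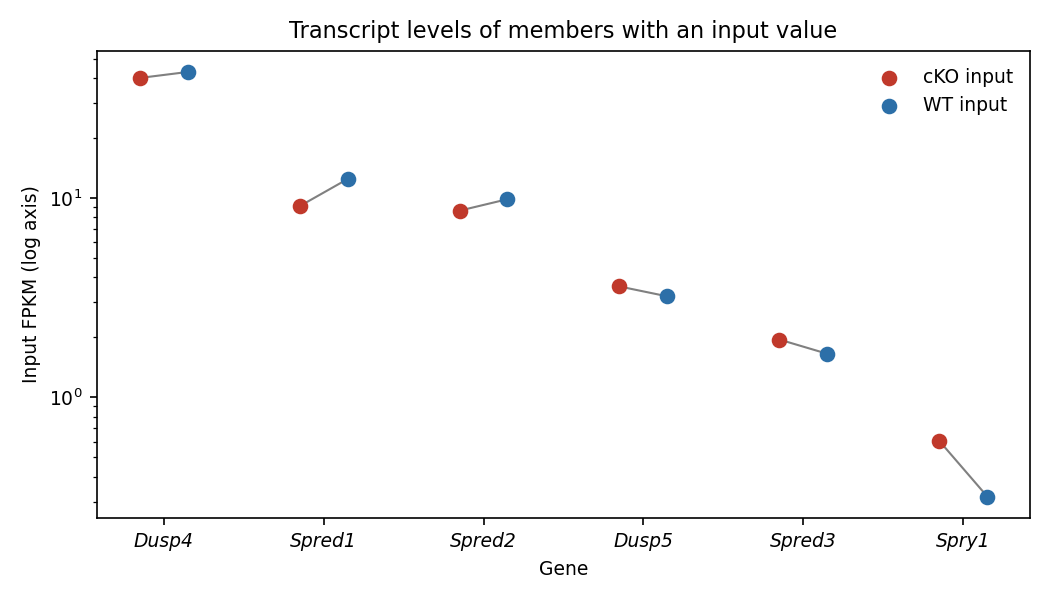
Input FPKM on a log axis (y axis) is shown for the 6 members with a value (x axis), the cKO library in red on the left and the WT library in blue on the right, 1 library each. Dusp4, Spred1 and Spred2 lie lower in the cKO and Dusp5, Spred3 and Spry1 higher.

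Members' peaks were also searched for GGAC on the transcribed strand, in their exonic part, and those with no exonic bases were left out. The motif was present in 18 of 23 cKO peaks (78.3%, 95% interval 56.3 to 92.5) and 16 of 19 WT peaks (84.2%, 60.4 to 96.6), against 68.7% of all cKO peaks and 67.3% of all WT peaks in the same range of lengths. These intervals too take peaks of the same gene as independent. Member peaks were longer, with a median exonic length of 618 bases in the cKO and 725 in the WT, against 346 and 325 bases over those cKO and WT peaks, and a longer peak has more room for a match. Per kb the members' peaks held 5.11 GGAC in the cKO and 5.47 in the WT, against 4.33 over all cKO peaks and 4.40 over all WT peaks of that range. Outside their peaks the same 10 transcripts held 3.16 per kb in the cKO and 2.53 in the WT, against 4.06 and 4.04 per kb outside cKO and WT peaks over all coding genes. The longer form GGACT came to 2.11 per kb in the cKO and 2.08 in the WT, against 1.21 and 1.22 in cKO and WT peaks of that range.

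Spry1 was the richest in GGAC, with 20 sites in its transcript of 2481 bases, 8.06 per kb, and Spred1 the poorest, with 11 in 6016 bases, 1.83 per kb. In the 9 members whose sites were placed singly, 89 GGAC sites lay in peaks of both genotypes, 2 in a cKO peak only and 15 in a WT peak only. The WT-only sites lay in Dusp1 (3 sites), Dusp4 (3), Spred3 (3), Dusp5 (2), Spred2 (2) and Spry1 (2). Over all coding genes, 52.2% of the sites in peaks of a single genotype were in WT peaks only.

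The last question is how the rest of the Ras-ERK pathway compares. In 5 lists with 82 genes, 78 had a cKO peak and 79 a WT peak, and the authors' deposited table lists 69 differential peaks in 48 of them, 41 lower and 28 higher in the cKO. At an adjusted p below 0.05 the authors' deposited table has 32 lower and 17 higher. These counts, and those of each list below, stand against the shares over all features given above: 54.2% of genes with a peak in both lists have a listed peak in the authors' deposited table. Of all its peaks, the authors' deposited table has 51.1% lower and 48.9% higher, with 28.9% lower and 24.4% higher at the adjusted threshold.

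Receptors and adaptors, which pass the signal to Ras, had 13 lower and 5 higher peaks in the authors' deposited table, of which 11 and 1 pass an adjusted p of 0.05. The largest differences at that threshold in the authors' deposited table were in the Ras exchange factor genes Sos1 (-3.03, adjusted p 0.0444) and Sos2 (1.28, adjusted p 0.00425) and in the adaptor gene Gab1 (-1.18, adjusted p 0.0358). For another Sos2 peak the authors' deposited table has -1.25 (adjusted p 0.00306). The Sos1 peak stood at -1.37 in the cKO and 1.66 in the WT in the authors' deposited table, with IP below input in the cKO.

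For Ras proteins and their GTPase-activating proteins the authors' deposited table has 3 lower and 6 higher peaks, of which 1 and 5 pass an adjusted p of 0.05. The higher ones in the authors' deposited table included Rasa1 (1.30) and Rasa3 (0.60), which switch Ras-family proteins off, and Lztr1 (0.59, with -1.16 at a peak that misses the threshold), an adaptor for the degradation of Ras proteins. For kinases and scaffolds the authors' deposited table has 9 lower and 11 higher peaks, of which 8 and 6 pass that threshold. Those that pass include peaks in the scaffold gene Ksr1 (-1.32 and -1.18) and, in opposite directions, in the kinase gene Braf (-2.81, -0.93 and 1.69). The Braf peak of -2.81 stood at -1.08 in the cKO and 1.73 in the WT in the authors' deposited table (adjusted p 0.0488), with IP below input in the cKO.

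Other dual-specificity phosphatase and Sprouty genes had 6 lower and 1 higher peak in the authors' deposited table, of which 4 and 1 pass an adjusted p of 0.05. Among these Dusp16, a phosphatase of JNK and p38, differed by -0.78, Dusp7, a relative of Dusp6, by -0.48 and Dusp3, a small ERK phosphatase, by 0.46 and, at another peak, by -0.24 in the authors' deposited table. The list of transcripts induced by ERK also holds Elk1, Elk3 and Elk4, the genes of ERK targets. It had 10 lower and 5 higher peaks in the authors' deposited table, of which 8 and 4 pass. The largest differences in the authors' deposited table were higher peaks in Egr3 (2.77), an early response transcription factor gene, Ier5 (1.69, with -0.23 at a stronger peak, adjusted p 0.000188) and the ERK target Elk4 (1.16, with -0.41 at another of its peaks). The Egr3 peak stood at 2.28 in the cKO and -0.49 in the WT in the authors' deposited table (adjusted p 0.0271), with IP below input in the WT.

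**Figure D5:**
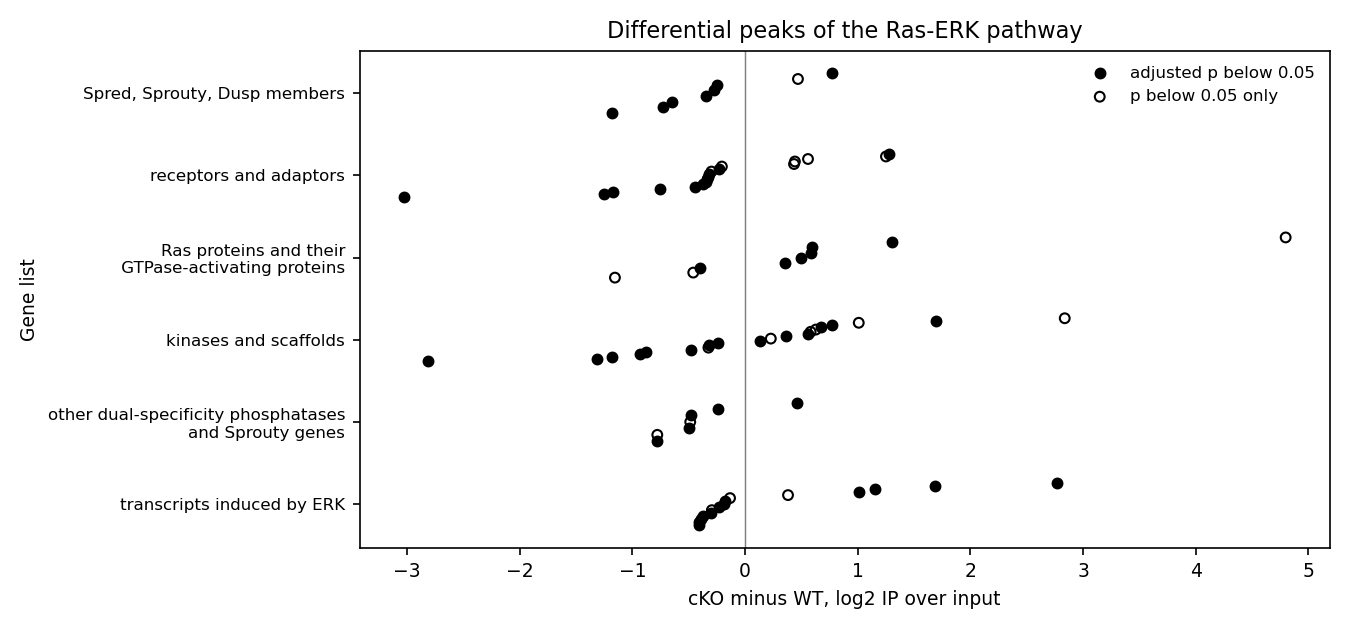
Each point is a differential peak of the authors' deposited table, placed by its cKO minus WT difference in log2 IP over input (x axis) and grouped by gene list (y axis), filled where the adjusted p is below 0.05. The members have 6 peaks below 0 and 2 above, and the list of Ras proteins and their GTPase-activating proteins has 3 below and 6 above.

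In the input, 46 of the 82 pathway genes had a mean FPKM of at least 1, with 32 lower and 14 higher in the cKO and a median difference of -0.095. Over all genes with an input value at that level, 54.2% were lower and the median was -0.020. None of the 46 passed 1.5-fold, against 3.13% of those genes. The largest difference was -0.45 in Met, the receptor of hepatocyte growth factor, at 23.1 FPKM in the cKO and 32.0 in the WT. In the list of transcripts induced by ERK, which includes the Elk genes, 8 were lower and 2 higher, with a median of -0.20. In that list Egr2 stood at 10.7 FPKM in the cKO and 14.0 in the WT. Both Met and Egr2 have a q of 1 in the authors' deposited table.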

How the data were processed

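Per the labels' protocols, poly(A) RNA from 50 µg of total RNA was fragmented and incubated with an m6A antibody, and dUTP-marked libraries were read as pairs of 150 bp. The submitters' processing notes name mm10 as the build and, with no role or version, edgeR, StringTie, ChIPseeker, HOMER, HISAT2 and fastp. Which tool called the peaks, and how IP was scaled to input, is not given in the sources used here. Per the file headers, the peak lists hold the log2 of IP over input, a raw and an adjusted p-value for each peak, called by the authors from 1 IP and 1 input library per genotype. Per the file headers, the authors' differential table holds log2 values per genotype, their difference and a p-value, and lists only p below 0.05. The deposited gene table adds the FPKM of the peak's gene in each input library, with the authors' fold, p-value and q-value, so levels exist only for genes with a listed differential peak. Depth is unknown.

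Groups come from the titles, with 1 library each, so no test of its own was run. Starts count from 0 in the files (4802 WT peaks start 1 below the annotated gene start, 0 at it) and are given 1-based. The table's cKO and WT columns were checked against the lists at 1444 and 1619 identical positions (Pearson's r across peaks 0.9998 for both). Overlaps were taken on the same strand, with at least 1 bp. Exonic parts and sequences come from GENCODE M21, which holds 99.7% of the named transcripts. Calculations used Python 3.11.15 and pandas 2.3.3, and overlap and motif steps were tested on simulated data. All 10 members are named; pathway genes are those of largest differential peak (adjusted p below 0.05) or input difference per list, of which some are printed. The members and lists were chosen with earlier results of these data known. Alternatives were other thresholds, overlaps, pseudocounts, scalings and a longer motif.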

Additional observations from a re-analysis of the deposited data

How the results depend on the processing

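Of 27 alternative values for 12 results, 15 were classed as the same as the reported value, 11 as moved and 1 as reversed. The medians classed as moved kept their sign. Requiring an overlap of 50% of both peaks gave 46.2% of the members' cKO peaks and 57.1% of their WT peaks as shared (46.1% and 48.8% of all cKO and all WT peaks) and a matched median of 0.119 (0.026 over all peaks so matched). Centring on all matched peaks gave 0.036. Of the differential peaks, 1 higher one remained at an adjusted p below 0.05, and 0 higher and 1 lower (Spry1) at an absolute log2 difference of at least 1. Without the FPKM filter the median input difference of the members turned to 0.015, since Spry1, at a mean under 1 FPKM, then entered it. Scaling FPKM to a median difference of 0 gave -0.074. The pathway median was -0.106 with a pseudocount of 0.1, -0.107 with no filter and -0.074 after scaling. An overlap of exonic parts, an alternative chosen after seeing the data, gave 91.3% of cKO and 94.7% of WT peaks. The overlap of peak blocks and the motif search of whole genomic spans were not run. No paired analysis was possible because each group has 1 library and the labels give no replicate numbers.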
